A study of Mus musculus with 6 samples.

Results

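Endothelial cells (EC) line blood vessels as a single layer, and the contacts between neighbouring EC decide which cells and solutes leave the blood. Transcript levels of 9 genes for such contacts, Cdh5, Cldn5, Esam, Jam2, Jam3, F11r, Tjp1, Ocln and Ctnnd1, were compared between infant and young adult lung EC. The genes were chosen by name, as a set of known junction molecules, though earlier results of these data had been seen. All 9 were found among the 12623 genes of the deposited table, in 14 of its 17241 transcript rows. The series held 6 RNA-seq libraries from C57BL/6N mice, 3 labelled infant and 3 labelled young adult, each a separate biological sample of lung EC, with no treatment or engineered allele named in the labels. According to the study's methods, infant mice were in the second week after birth and young adult mice in the second or the third month of life, and flow cytometry was used to collect living CD31+CD34+ cells negative for PTPRC, LYVE1, PDPN and LY76. The comparison addressed what changes as the growing lung endothelium comes to rest. The methods name female mice (sex-linked transcripts are given below). Whether a library came from 1 animal or from pooled animals is not stated in the sources used here.

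In adherens junctions, VE-cadherin molecules of neighbouring cells bind each other and are held to the actin cytoskeleton by catenins. In tight junctions, claudins and occludin seal the cleft between cells, and zonula occludens proteins bind them from inside the cell. Junctional adhesion molecules and ESAM are immunoglobulin-type adhesion proteins of the same contacts, through which leukocytes pass on their way into tissue. Endothelial tight and adherens junctions lie intermingled along the contact.

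Levels are given as RPKM, the number of reads scaled to the length of the transcript and to all mapped reads of the library, so that they can be set side by side between genes. The 3 values of a group are always listed in the order of replicates 1 to 3, and the depth of each library is unknown, since the table gives RPKM alone and the study's methods state an average coverage only. RPKM over all rows summed to between 362970 and 428155 per library. Infant replicate 2 stood apart from the other infant libraries, with Pearson correlations across genes on the log2(RPKM + 1) scale of 0.963 and 0.964 to them, against 0.987 between infant replicates 1 and 3 and 0.949 to 0.963 to the young adult libraries. These coefficients are across genes, which are no replicates of each other. Transcripts of the Y-linked gene Ddx3y measured between 16.5 and 21.9 RPKM in infant and 0.0 RPKM in young adult libraries, and Xist, which is expressed from the inactive X chromosome of females, measured 8.2, 8.7 and 7.6 RPKM in the infant libraries against 15.6, 12.5 and 13.4 RPKM in the young adult ones. Each infant library thus held RNA of males and of females, and so of more than 1 animal. The study's methods name female mice, which the Y-linked transcripts of the infant libraries go against. The sex of the animals and their age cannot be told apart. The label of the cells was checked against 16 endothelial markers. Their geometric mean was 94.8, 116.8 and 83 RPKM in the infant libraries and 127.5, 139 and 133.7 RPKM in the young adult libraries. Of the defining markers, Pecam1 lay between 309.8 and 657.8 RPKM, Tie1 between 139.6 and 213 RPKM and Erg between 11.7 and 15.9 RPKM. In such bulk samples, fewer EC and less RNA per EC cannot be told apart.

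None of the 9 junction genes passed the test between the age groups. Under the rule used here, an adjusted p under 0.05 in limma and a log2 fold change of more than 0.81 in either direction on the log2(RPKM + 1) scale, 0 of 9 were called, against 11.4% of the 12458 genes tested and 9.87% of the 4681 tested genes with a mean of at least 10 RPKM, a mean that all 9 had. At an adjusted p under 0.05 without the fold threshold the count was again 0, against 25.5% of all genes tested and 25.6% of those with a mean of at least 10 RPKM. At an unadjusted p under 0.05 it was 2, Esam and Jam2. The age groups did not overlap in 1 of the 9 genes, Esam, against 43.4% of all genes. The median log2 fold change of the 9 was 0.27, that of all genes tested -0.07, and the median size of the change irrespective of sign was 0.28 for the 9 and 0.24 for all genes.

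**Figure D1:**
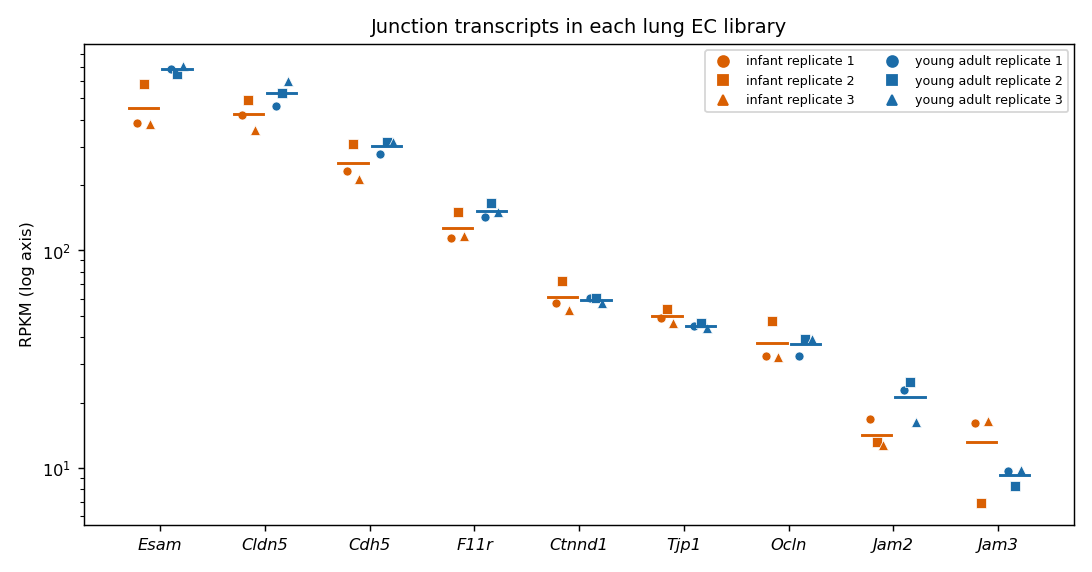
RPKM on a log axis for each of the 9 junction genes, with 1 point per library (marker shape gives the replicate number) and a horizontal bar at the mean of the 3 libraries of an age group. Esam is the gene in which all young adult points, from 647.2 to 706.1 RPKM, lie above all infant points, from 382.5 to 583.5 RPKM.

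The order of the mean levels was the same in both groups, namely Esam, Cldn5, Cdh5, F11r, Ctnnd1, Tjp1, Ocln, Jam2 and Jam3. In infant EC it ran from 449.9 ± 116 RPKM for Esam to 13.1 ± 5.4 RPKM for Jam3 (SD, n = 3), and in young adult EC from 679.3 ± 29.8 to 9.27 ± 0.839 RPKM. Esam and Cldn5 ranked 48 and 52 among all tested genes in infant and 32 and 48 in young adult EC, whereas Jam3 ranked 3792 and 4787. In infant EC the ranges over the 3 libraries overlapped between Esam and Cldn5, Ctnnd1 and Tjp1, Tjp1 and Ocln, and Jam2 and Jam3. Within each infant library, however, Ctnnd1 lay above Tjp1 and Tjp1 above Ocln. The order of Esam and Cldn5 and that of Jam2 and Jam3 changed between infant libraries, so that these orders were not resolved. In young adult EC no neighbours in the order overlapped. The spread was wider among infant libraries, with a median coefficient of variation (SD over mean) of 16.3% over the 9 genes, against 7.66% in young adult EC, and it was smaller in young adult than in infant EC in 8 of the 9 genes, all but Jam2. The same held for 64.3% of the 4681 genes with a mean of at least 10 RPKM.

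Cdh5 (chromosome 8, 104101613 to 104144504 in GRCm38, the coordinates of mm10, introns included) encodes VE-cadherin, the cadherin of endothelial adherens junctions. It measured 232.5, 310.1 and 213.8 RPKM in the infant libraries and 276.4, 314.5 and 316.9 RPKM in the young adult libraries. Infant replicate 2 lay among the young adult libraries, and the other infant libraries lay below all of them. The log2 fold change was 0.28 with a 95% interval from -0.12 to 0.67 (limma adjusted p 0.256). Ctnnd1 (chromosome 2, 84587096 to 84658977) encodes the catenin delta that binds the inner part of VE-cadherin and slows its uptake from the membrane. Its most abundant row measured 57.4, 72.3 and 53.4 RPKM in the infant libraries and 60.4, 60.5 and 57.4 RPKM in the young adult libraries, so that the young adult values fell within the infant range. The log2 fold change was -0.03 with an interval from -0.33 to 0.27 (limma adjusted p 0.9).

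Among tight junction genes, Cldn5 (chromosome 16, 18776847 to 18778262) encodes claudin-5, the leading claudin of endothelium, in a transcript of 1 exon. It measured 420, 494 and 358.1 RPKM in the infant libraries and 463, 530.7 and 600.9 RPKM in the young adult libraries. The groups overlapped through infant replicate 2 and young adult replicate 1, and the log2 fold change was 0.33 with an interval from -0.09 to 0.75 (limma adjusted p 0.209). Ocln (chromosome 13, 100496504 to 100552718) encodes occludin, a tight junction protein of the membrane that epithelia share. It measured 32.9, 47.5 and 32.4 RPKM in the infant libraries and 32.7, 39.2 and 39.2 RPKM in the young adult libraries. Infant replicate 2 was the highest of all libraries, and the log2 fold change of Ocln was 0.00 with an interval from -0.38 to 0.37 (limma adjusted p 0.989). Tjp1 (chromosome 7, 65296165 to 65527850) encodes ZO-1, the scaffold that ties claudins, occludin and junctional adhesion molecules to actin. It measured 48.9, 54 and 46.3 RPKM in the infant libraries and 44.8, 46.6 and 43.8 RPKM in the young adult libraries. The groups overlapped between infant replicate 3 and young adult replicate 2, and Tjp1 had the narrowest interval of the 9, from -0.36 to 0.09 around a log2 fold change of -0.14 (limma adjusted p 0.331).

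Tjp1 and Ctnnd1 were the only members with more than 1 transcript row, and the coding exons in which rows of a gene differ are shown because rows with and without them gave nearly the same values. The Tjp1 row NM_009386 holds a coding exon of 240 bases that NM_001163574 lacks, and 3 of the 5 Ctnnd1 rows hold each of a pair of short coding exons of 63 and 18 bases. The Ctnnd1 rows also differ in non-coding exons of 289 and 118 bases, which are not shown. The coding exons, printed on the strand of the gene from the GENCODE M21 transcripts of GRCm38, lie at chr7:65314093-65314332, chr2:84605184-84605246 and chr2:84612532-84612549, all on the minus strand.
Tjp1 exon of 240 bases: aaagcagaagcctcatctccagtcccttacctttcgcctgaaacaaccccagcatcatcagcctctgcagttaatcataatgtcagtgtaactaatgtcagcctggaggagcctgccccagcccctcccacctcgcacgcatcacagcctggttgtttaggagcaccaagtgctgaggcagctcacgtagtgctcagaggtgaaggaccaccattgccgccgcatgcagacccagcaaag
Ctnnd1 exon of 63 bases: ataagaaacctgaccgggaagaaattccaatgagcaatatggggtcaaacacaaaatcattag
Ctnnd1 exon of 18 bases: atgagtggttctccagag
The Tjp1 row with the exon stood at 0.959 to 0.963 times the row without it in all 6 libraries, and its log2 fold change was -0.14 in either row. The 4 other Ctnnd1 rows stood at 0.939 to 0.993 times the most abundant one, NM_001085453, which lacks both printed exons, and the log2 fold changes of the 5 rows lay between -0.03 and -0.02. How reads were shared between the rows of a gene is not given in the sources used here, so the use of these exons cannot be read from the rows.

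Esam (chromosome 9, 37528089 to 37538319) encodes an adhesion molecule of endothelial tight junctions and platelets. It measured 383.8, 583.5 and 382.5 RPKM in the infant libraries and 684.6, 647.2 and 706.1 RPKM in the young adult libraries. All young adult libraries lay above all infant libraries, with infant replicate 2 closest to them, and the ratio of the means was 1.51. The log2 fold change was 0.62 with an interval from 0.16 to 1.09, and its limma adjusted p of 0.057 missed the threshold. Without infant replicate 2 the log2 fold change of Esam was 0.82 (limma adjusted p 0.00185) and Esam was called, as the only member. The groups did not overlap in 9 of the 16 endothelial markers either, beside 43.4% of all genes tested. With libraries scaled to the same geometric mean of these markers, chosen after seeing the data, the log2 fold change of Esam was 0.17 (limma adjusted p 0.446). In the alternatives Esam had an adjusted p under 0.05 in 6 of 23 fits, and the p ranged from 0.00185 to 1.

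The junctional adhesion molecules differed among themselves. F11r (chromosome 1, 171437561 to 171464593), which encodes JAM-A and is also used by epithelia, leukocytes and platelets, was the most abundant of the 3. It measured 113.9, 150.2 and 116.4 RPKM in the infant libraries and 141.9, 164.8 and 149.6 RPKM in the young adult libraries, with a log2 fold change of 0.27 and an interval from -0.06 to 0.60 (limma adjusted p 0.197). Only infant replicate 2 reached the young adult range. Jam2 (chromosome 16, 84774123 to 84826380), which encodes JAM-B, measured 16.8, 13.2 and 12.7 RPKM in the infant libraries and 22.8, 24.8 and 16.2 RPKM in the young adult libraries. Its log2 fold change was 0.54 with an interval from 0.13 to 0.94 (limma adjusted p 0.0574), and young adult replicate 3 lay below infant replicate 1. Without that young adult library the adjusted p of Jam2 was 0.0268 at a log2 fold change of 0.71, and without each of the other libraries in turn it lay between 0.0649 and 0.183, at log2 fold changes from 0.42 to 0.65.

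Jam3 (chromosome 9, 27097384 to 27155421), which encodes JAM-C, a partner of JAM-B, measured 16.1, 6.9 and 16.4 RPKM in the infant libraries and 9.7, 8.3 and 9.8 RPKM in the young adult libraries. Infant replicate 2 was the lowest of all 6 libraries, whereas the other infant libraries were the highest. The log2 fold change was -0.38 with the widest interval of the 9, from -1.04 to 0.29 (limma adjusted p 0.361). Without infant replicate 2 it was -0.75 at an adjusted p of 0.00156, below the fold threshold. The summed markers of fibroblasts and of mural cells were likewise lowest in infant replicate 2 among the infant libraries. The 10 fibroblast markers summed to 1291, 335.5 and 909.2 RPKM in infant replicates 1 to 3 and to between 10.4 and 24 RPKM in young adult libraries, with Pdgfra at 87.2, 2.6 and 66.8 RPKM in the infant and at most 0.6 RPKM in the young adult libraries. Not every fibroblast marker had this order: Dcn, at 7.6, 19.9 and 8 RPKM, and Lum, named after its values were seen, at 4.1, 14.4 and 4.7 RPKM, were highest in infant replicate 2 among the infant libraries. The 10 mural markers summed to 241.7, 79.6 and 249 RPKM in infant and to between 12.8 and 18.2 RPKM in young adult libraries. All 10 genes of either list were lower in young adult EC and 9 of each were called, beside 11.4% of all genes tested. Their part in the values of Jam3 was not tested.

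**Figure D2:**
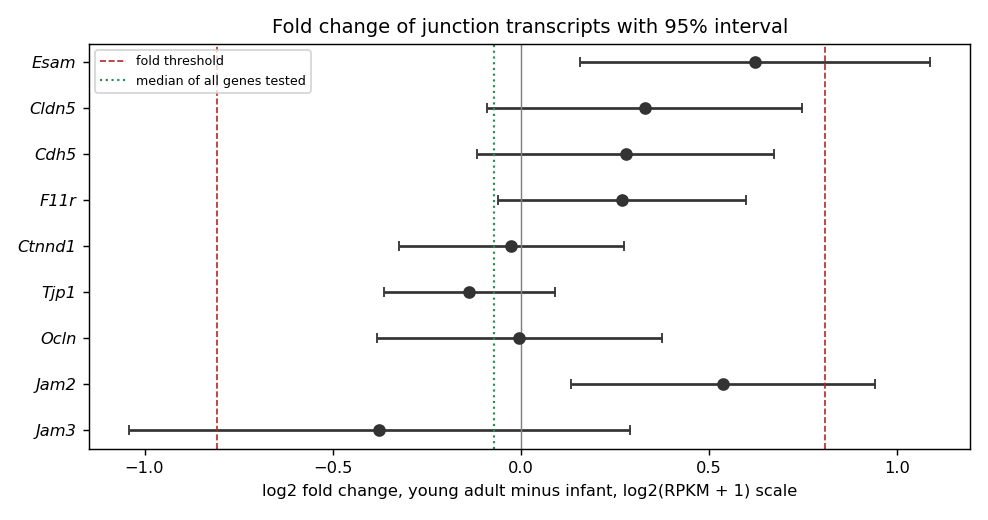
Log2 fold change between young adult and infant EC on the log2(RPKM + 1) scale for each junction gene (point) with its 95% interval from limma (bar), the fold threshold of 0.81 in either direction (dashed lines) and the median of all genes tested (dotted line). The intervals of Esam and Jam2 lie above 0 before adjustment, the other 7 include 0, and no point lies beyond the threshold.

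The values of infant replicate 2 moved most of these genes together. It was the highest infant library in 7 of the 9 genes, all but Jam2 and Jam3, as it was in 12 of the 16 endothelial markers, against 35.7% of all genes tested. Against the mean of the other infant libraries it was higher by 0.47 for Cdh5, 0.61 for Esam and 0.35 for Cldn5 and lower by -1.13 for Jam3 on the log2(RPKM + 1) scale, at a median of 0.40 for the endothelial markers and 0 for all genes. Globin genes made up 11%, 3.41% and 23.5% of the summed RPKM of genes in infant replicates 1 to 3 and at most 0.487% in young adult libraries. RPKM is relative to all mapped reads, so globin reads lower the other genes of a library. The size of that effect cannot be read from a share of RPKM, which is not a share of reads. With libraries scaled to equal sums without globin genes, the log2 fold changes were 0.17 for Cdh5, 0.22 for Cldn5 and 0.52 for Esam, the latter at an adjusted p of 0.0547.

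Since the scaling of a library cancels in a ratio within it, each gene was next set against Cdh5 of the same library. On the log2 scale the ratio of Esam to Cdh5 was 0.72, 0.91 and 0.84 in infant and 1.31, 1.04 and 1.16 in young adult replicates 1 to 3, a difference of 0.34 with no overlap between the groups. The ratios of 3 genes lay lower in young adult EC, again with no overlap, for Tjp1 from -2.33 ± 0.17 to -2.75 ± 0.12 (SD, n = 3), for Ctnnd1 from -2.04 ± 0.05 to -2.35 ± 0.14 and for Ocln from -2.75 ± 0.06 to -3.03 ± 0.04. For each of these 4 ratios the exact two-sided permutation p was 0.1, the smallest that 3 against 3 libraries can give. After adjustment over the 8 ratios compared it was 0.2, so that the test could not pass 0.05. Such a ratio also moves with Cdh5, which itself had a log2 fold change of 0.28. The log2 fold changes of Tjp1, Ctnnd1 and Ocln were -0.14, -0.03 and -0.004. A gene at the middle of all those tested changed by -0.07 on the log2(RPKM + 1) scale, so it too fell relative to Cdh5. Levels in RPKM did not overlap between the groups in 43.4% of the genes tested. The share of all genes whose ratio to Cdh5 did not overlap between the groups was not computed. Whether the lower ratios are particular to Tjp1, Ctnnd1 and Ocln was therefore not tested. The ratio of F11r to Cdh5 was nearly the same in both groups, -0.98 ± 0.09 in infant and -0.99 ± 0.08 in young adult EC (exact permutation p 1), and that of Cldn5 was 0.76 ± 0.09 and 0.81 ± 0.10 (exact permutation p 0.5). For Jam2 the difference was 0.29 and for Jam3 it was -0.68, both with overlapping groups (exact permutation p 0.5 and 0.4). When every library was instead scaled to the same geometric mean of the 16 endothelial markers, an alternative chosen after seeing the data, Tjp1, Ocln and Ctnnd1 had adjusted p of 0.014, 0.0357 and 0.0269 with log2 fold changes of -0.58, -0.45 and -0.47, under the fold threshold. Under that scaling 5897 of the 12413 genes tested had an adjusted p under 0.05, which is the share to set beside these 3 genes. That scaling moved the median of all genes to -0.45 and turned the sign of Cdh5, Cldn5 and F11r.

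**Figure D3:**
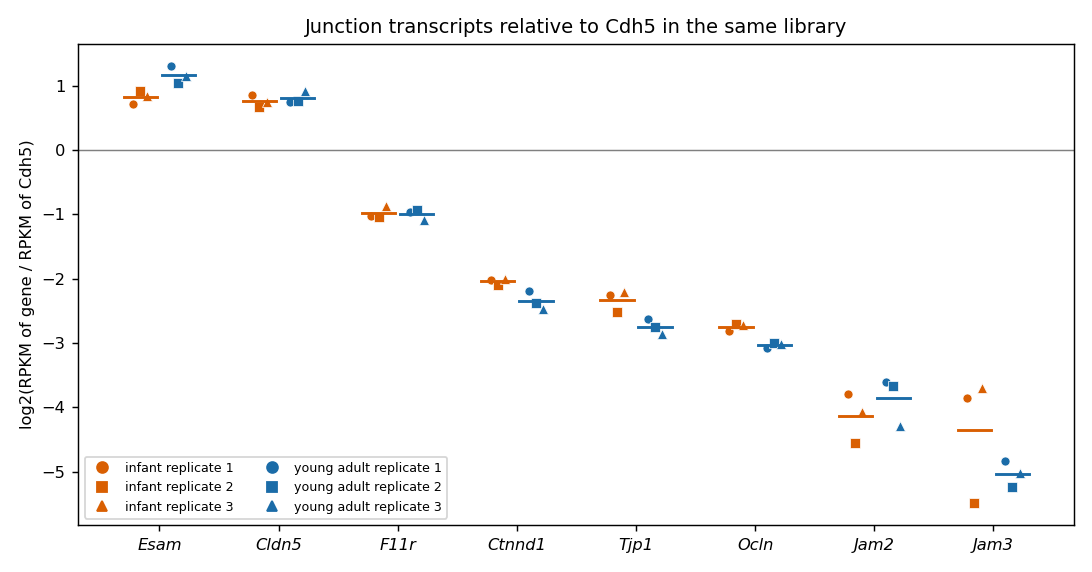
Log2 ratio of the RPKM of each junction gene to that of Cdh5 in the same library, with 1 point per library and a bar at the mean of each age group. The points of Esam lie higher in all young adult libraries and those of Tjp1, Ctnnd1 and Ocln lower, whereas those of F11r, Cldn5, Jam2 and Jam3 overlap between the groups.

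The genes whose values over the 6 libraries were most like those of Cdh5 and Cldn5 were looked up by the root mean square difference between log2(RPKM + 1) values centred on the mean of each gene. For Cdh5 these were Itgb1bp1 (0.0453), Hs1bp3 (0.0475), Mtus1 (0.0477), Pex16 (0.0493) and Htatip2 (0.05), and for Cldn5 they were Aup1 (0.0571), Stk19 (0.0611), Nkd1 (0.0615), Pex16 (0.0636) and Tmem66 (0.0653), on the log2 scale, among 6983 genes compared. F11r was the member closest to Cdh5, at 0.0708 and rank 22, followed by Cldn5 at 0.0822 and rank 46. Jam3 was the farthest, at 0.637 and rank 6484.

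The other genes of these contacts were taken as lists. Of 17 other adherens junction genes tested, 3 were called, 1 higher and 2 lower, with a list median of -0.12, and over all genes tested 11.4% were called, 415 higher and 1009 lower. Ptprb, which encodes the phosphatase VE-PTP that binds VE-cadherin, rose from 46.5 ± 9.56 to 106.9 ± 20.9 RPKM (SD, n = 3), with a log2 fold change of 1.18 ± 0.19 (SE, limma adjusted p 0.00602), and was called in each of the 6 fits that left out 1 library, but under neither scaling to endothelial markers. Cdh2, which encodes N-cadherin, fell from 2.37 ± 0.569 to 0.233 ± 0.0577 RPKM (-1.44 ± 0.16, limma adjusted p 0.00165), and Pvrl2, a nectin gene, from 2.1 ± 0.557 to 0.433 ± 0.115 RPKM (-1.10 ± 0.17, limma adjusted p 0.00487). In the infant libraries Cdh2 measured 2.2, 1.9 and 3 RPKM and Pvrl2 2.7, 1.6 and 2 RPKM. Both were lowest in infant replicate 2 among these, as were the summed fibroblast and mural markers, whose part in their values was not tested. Among the most abundant genes of the list, Pecam1, which encodes CD31, a sorting antigen, had a log2 fold change of 0.69 ± 0.21 (limma adjusted p 0.0513), and Jup, which encodes plakoglobin, of -0.03 ± 0.11 (limma adjusted p 0.851). The catenin genes that link cadherins to actin had opposite signs, Ctnna1 with 0.47 ± 0.13 (limma adjusted p 0.0376) and Ctnnb1, named after its values were seen, with -0.34 ± 0.09 (limma adjusted p 0.0372), both under the fold threshold.

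Of 22 other tight junction genes tested, 2 were called, both lower, with a list median of -0.15, a count near the 11.4% of all genes. Cldn1, a claudin gene of epithelia, measured 4.9, 1 and 5.6 RPKM in the infant libraries and 0, 0 and 0.4 RPKM in the young adult libraries (log2 fold change -1.93 ± 0.43, limma adjusted p 0.0176). Cgnl1, which encodes the scaffold paracingulin, measured 10.4, 4.1 and 8.1 RPKM in the infant libraries and 2.2, 2.8 and 2.6 RPKM in the young adult libraries (-1.20 ± 0.27, limma adjusted p 0.0184). Both were lowest in infant replicate 2 among the infant libraries, as Jam3 was. Of the 6 fits that left out 1 library, Cldn1 was called in 2, those without infant replicate 2 or young adult replicate 3, and Cgnl1 in 1, that without infant replicate 2. Among the abundant genes of the list, Amotl1 had a log2 fold change of -0.35 ± 0.14 (limma adjusted p 0.108) and Pard6g of 0.49 ± 0.22 (limma adjusted p 0.142).

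Gap junctions consist of connexins, which form channels between neighbouring cells. Of 5 tested endothelial gap junction genes, 2 were called, both lower, with a list median of -0.61, beside 11.4% of all genes called and 9 of 10 markers each of fibroblasts and mural cells called lower. Gja1, which encodes a connexin of many cell types, measured 35.8, 23.5 and 28.3 RPKM in the infant libraries and 7.1, 7.6 and 6.6 RPKM in the young adult libraries (-1.88 ± 0.15, limma adjusted p 0.00071), and was called in all 6 fits without 1 library and under all 6 scalings. Gja1 was lowest in infant replicate 2 among the infant libraries, as were the summed fibroblast and mural markers, whose part in its values was not tested. Gja5, which encodes a connexin of arterial EC, measured 21.7, 17.9 and 18.2 RPKM in the infant libraries and 7.9, 12.3 and 6.4 RPKM in the young adult libraries (-1.08 ± 0.21, limma adjusted p 0.0112). Its call was lost without young adult replicate 1. Gja4, which encodes another endothelial connexin and was the most abundant of the list, measured 88.8 ± 33.6 and 99.2 ± 27.4 RPKM (0.21 ± 0.32, limma adjusted p 0.661).

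Genes of epithelial junctions were present at low levels. All 7 tested were lower in young adult EC and 3 were called, with a list median of -0.86. Of all 12458 genes tested, 7295 were lower and 11.4% were called, which is the share to set beside each count below. Cdh1, which encodes E-cadherin, measured 7.1, 9.2 and 9.2 RPKM in the infant libraries and 1.5, 3.5 and 5.1 RPKM in the young adult libraries (-1.21 ± 0.30, limma adjusted p 0.0241). Cldn3 (-1.22 ± 0.30) and Cldn7 (-0.89 ± 0.24) had adjusted p of 0.0239 and 0.0346, and Cldn18, the most abundant of the list, had a log2 fold change of -0.86 ± 0.31 (limma adjusted p 0.0756). The calls of Cdh1 and Cldn3 were lost without infant replicate 1, infant replicate 3 or young adult replicate 2, and that of Cldn7 without infant replicate 2 or 3 or young adult replicate 1 or 2. The 11 epithelial markers measured summed to 6526, 11400 and 8498 RPKM in the infant libraries and to 1820, 4827 and 8392 RPKM in the young adult libraries, with Sftpc at 1450.9 to 4883.1 RPKM, while Epcam reached at most 1.1 RPKM and was listed at 0 in young adult replicate 1. All 11 were lower in young adult EC and 5 were called. Of the 10 leukocyte markers, all lower, 3 were called, with Ptprc at 3.0 to 7.0 RPKM in infant and 0.2 to 1.8 RPKM in young adult libraries. Of the platelet markers 0 of 4 were called, and all 7 erythroid markers were called lower. Of the 4 lymphatic markers 1 was called, Lyve1, which encodes an antigen that sorted cells were to lack. It measured 68.6, 171.4 and 82.7 RPKM in the infant and rose to 396.4, 307.9 and 252.9 RPKM in the young adult libraries (log2 fold change 1.65 ± 0.33, limma adjusted p 0.0132). Among the 16 endothelial markers, 2 were called, both higher, at a list median of 0.39, a count near the 11.4% of all genes. Ocln, F11r and Tjp1 are genes of epithelial junctions as well, F11r is used by leukocytes and platelets too, and the part of RNA from these cells in their values was not tested.

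Of 25 genes that regulate endothelial junctions, such as small GTPases and their partners, 1 was called, with a list median of 0.13. Over all genes tested, 11.4% were called. S1pr1, which encodes the sphingosine receptor that stabilizes VE-cadherin contacts, measured 192.9, 399 and 198.4 RPKM in the infant libraries and 494.5, 507.6 and 461 RPKM in the young adult libraries (0.97 ± 0.28, limma adjusted p 0.0385). It was highest in infant replicate 2 among the infant libraries, as Esam and Cdh5 were. Without that library its call held, and leaving out any of the other 5 libraries ended it, as did 3 of the 6 scalings. The abundant GTPase genes Cdc42 and Rhoa had log2 fold changes of -0.04 ± 0.12 (limma adjusted p 0.839) and 0.22 ± 0.17 (limma adjusted p 0.372).

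**Figure D4:**
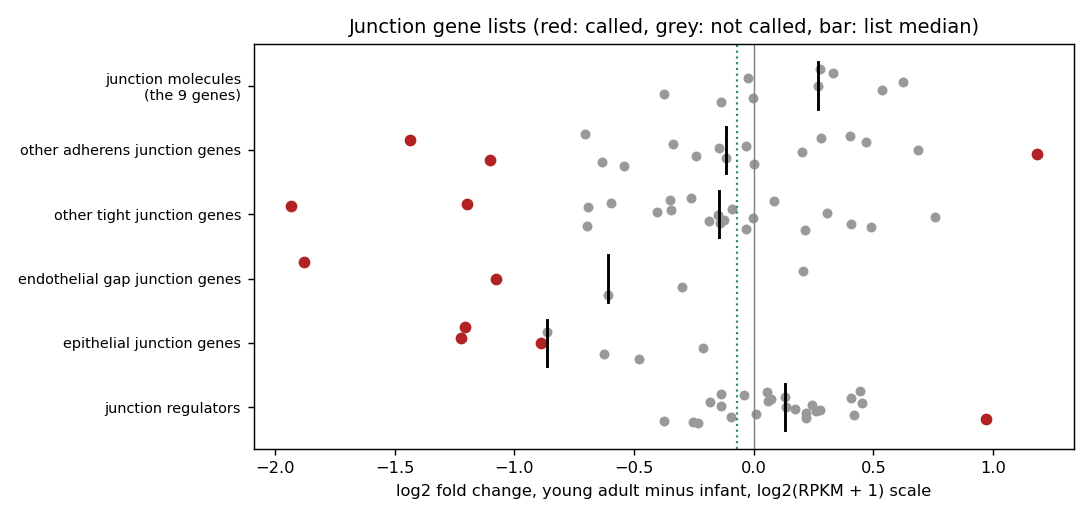
Log2 fold change between young adult and infant EC on the log2(RPKM + 1) scale for the tested genes of 6 lists, 1 point per gene, with called genes in red, other genes in grey, the list median as a black bar and the median of all genes tested as a dotted line. No point of the 9 junction molecules is red, and Cldn1 at -1.93 and Gja1 at -1.88 lie farthest left.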

How the data were processed

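RNA-seq libraries of sorted lung EC were made with the SMARTer Ultra Low kit from PicoPure RNA and sequenced on a HiSeq2000. The authors aligned reads to mm10 with STAR, annotated with RefSeq and ran DESeq2 for their own comparison. They deposited RPKM values, 1 column per library and 1 row per transcript, rounded to 1 decimal. The program that computed RPKM is not given in the sources used here. The depth of each library is unknown, so no counting error was attached to values.

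Symbols that had become dates were restored from RefSeq accessions (24 rows). For each gene the row with the highest mean RPKM was kept. Groups came from the titles. log2(RPKM + 1) was fitted across all genes with limma 3.58.1 in R 4.3.3 (age as the only term, intensity trend, Benjamini-Hochberg over 12458 genes, those that reached an RPKM of 1 in any library). Fold changes are young adult minus infant on that scale, which understates low genes. Ratios to Cdh5 were compared with exact two-sided permutation tests. The fit was tested on simulated data. Gene positions are from RefSeq GRCm38.p6.

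The 9 genes, the other junction lists and the marker lists were chosen with earlier results of these data known. The text names the 9, of each other junction list the called genes and the 3 most abundant, and the defining markers, except an item that is not reported here. Replicate numbers were not used to pair libraries. Alternatives were other pseudocounts, filters, scalings, variance models, row choices, call rules and leaving out each library.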

Additional observations from a re-analysis of the deposited data

How the results depend on the processing

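No member was called in 22 of 24 alternatives. The exceptions were the fit without infant replicate 2, which called Esam, and scaling to the same median of the endothelial markers, which called 4 members (Ctnnd1, Jam3, Ocln and Tjp1), gave 7 an adjusted p under 0.05 and moved the median of all genes to -0.81. The depth of each library is unknown, and 3 libraries a group limit the precision. The cause of a change was not tested, except where fewer libraries, another scale or a stricter rule is the change itself.

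The number of members with an adjusted p under 0.05 was 0, and 1 with upper quartile scaling, equal sums, no intensity trend or the sum over transcript rows (Esam in each), 1 with the replicate block (Jam2, adjusted p 0.0484), 3 with the geometric mean of the endothelial markers and 4 with array weights. Deviations from the group means correlated at 0.03, -0.11 and -0.02 between libraries of the same replicate number, and no infant library correlated best with its own number. Pairing by number was thus not seen, though 3 libraries a group cannot exclude it. Fits without 1 library gave 0 to 4 such members, namely 4 when infant replicate 2 and 1 when young adult replicate 3 was left out. They gave 0 to 1 called members, and 842 to 1874 called genes of all tested, against 1424 with all libraries, namely 927 and 949 when infant replicate 1 or 3 and 842 and 867 when young adult replicate 1 or 2 was left out. At an adjusted p under 0.05 they gave 1173 to 4284 genes, with 1173 to 1899 in each fit that kept infant replicate 2. In these fits 3 to 4 other adherens junction, 0 to 3 other tight junction, 1 to 2 gap junction, 0 to 3 epithelial junction genes and 0 to 1 regulators were called, and the report names the libraries that ended each gene's call.

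Scaling to the median of the endothelial markers called 6356 genes (9847 at an adjusted p under 0.05), among them 10 other adherens junction, 12 other tight junction, 4 gap junction and 6 epithelial junction genes and 9 regulators. Scaling to their geometric mean, added after seeing the data, called 2402 (5897), with 5 adherens and 4 tight junction genes and 0 regulators. A pseudocount of 5 called 578 genes, with 1 adherens, 0 tight and 0 epithelial junction genes, and one of 0.1 called 5 tight junction genes. Without the fold threshold 3176 genes, 9 adherens and 6 tight junction genes passed. Limma treat called 176 genes, 1 gap junction gene and 0 of the adherens, tight and epithelial junction genes and regulators. Quantile normalization called 0 regulators. Of all calls 29.1% were higher in young adult EC, against 46.5% with quantile normalization, 41.5% with the pseudocount of 5, 1.64% with the median and 8.49% with the geometric mean of the endothelial markers.

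Signs turned as follows. Scaling to the median of the endothelial markers gave log2 fold changes of -0.61 for Cdh5, -0.56 for Cldn5, -0.27 for Esam, -0.31 for Jam2 and -0.62 for F11r, and scaling to their geometric mean gave -0.18 for Cdh5, -0.12 for Cldn5 and -0.18 for F11r. Ocln was 0.083 with equal sums and 0.11 with array weights, and ran from -0.097 to 0.17 in fits without 1 library, where it turned without infant replicate 2 or young adult replicate 1. Ctnnd1 was 0.061 with equal sums, 0.061 with array weights and 0.10 in the fit that left out infant replicate 2.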
